A study of Mus musculus with 36 samples.

Results

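The genes described here encode ligands through which a myeloid cell restrains or helps a T cell. They were chosen by name, as the checkpoint and costimulatory ligands Cd274, Pdcd1lg2, Lgals9, Pvr, Cd80, Cd86, Cd40, Icosl and Tnfsf9, and all 9 were found among the 24781 genes of the count table. In the study, MC38 cells, a mouse colon adenocarcinoma line, were inoculated into mice that do or do not have B cells, to ask how B cells and the metabolite GABA act on immune cells of the tumour. On day 7, 100 cells per library were sorted as tumour-associated macrophages (TAMs, CD45+CD11b+F4/80high) or as CD8+ T cells (CD45+TCRbeta+CD8+), with 1 library per mouse. The RNA was read by digital RNA sequencing, in which each molecule carries a barcode, so that the values are numbers of molecules.

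Each cell type had 3 groups of 6 libraries. The first group came from wild-type (WT) mice, the second from muMt-/- mice, which have no mature B cells, and the third from muMt-/- mice implanted with a GABA pellet. The labels give the treatment of the WT and the muMt-/- group as none, while the study's methods and figure captions describe placebo pellets beside GABA pellets. The study describes muMt-/- mice as C57BL/6J and WT mice as C57BL/6J or C57BL/6N, of both sexes and an age of 2 to 5 months, matched in age and sex, and gives none of these for single libraries. A difference of substrain between WT and muMt-/- mice cannot be told apart from the genotype. The muMt-/- mice lack mature B cells in every tissue, not in the tumour alone. The replicate numbers tie no TAM library to a CD8+ T cell library of the same mouse.

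T cells need a signal from costimulatory ligands beside the one from antigen, and inhibitory ligands on the same cells counter it. PD-L1, the product of Cd274, is induced by interferon-γ in macrophages and is a target of cancer immunotherapy together with its receptor PD-1. CD80 and CD86 bind both CD28, which activates T cells, and CTLA-4, which inhibits them, so the balance of receptors decides what these ligands do.

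Library totals in TAMs ran from 206394 to 304100 molecules for WT mice, from 100254 to 253608 for muMt-/- mice and from 151856 to 262606 with GABA, at medians of 242756, 149960 and 192775. In CD8+ T cells the totals were lower, from 22896 to 76898 for WT mice, from 51064 to 77839 for muMt-/- mice and from 65356 to 98015 with GABA, at medians of 42065.5, 67121.5 and 80283. Genes with a mean normalized number of molecules above 1 were tested with the quasi-likelihood F-test of edgeR, and a gene was called where its p adjusted over all tested genes was under 0.05. Of the 9 ligand genes, 9 passed this filter in TAMs, where 9469 genes were tested, and 5 passed in CD8+ T cells, where 6663 were tested. Normalized numbers below are molecules divided by the size factor of the library within its cell type, and they compare libraries for 1 gene, not genes with each other. All values are relative to the other RNA of a library, and fewer expressing cells among the 100 and less RNA per cell cannot be told apart.

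The first question was what the absence of B cells changed in TAMs. In muMt-/- against WT mice, 2 of the 9 genes were called, both higher in muMt-/- mice, against 2.05% of all genes tested (194 of 9469). They were Cd274 and Pdcd1lg2, which the study lists among its own TAM genes from these libraries, so that the calls are no independent evidence. At an unadjusted p under 0.05 the count was 3, with Pvr added, against 14.9% of all genes. The Wald test of DESeq2 gave an adjusted p for 4 of the 9 and called 1 of them, Cd274, against 8.27% of the genes to which it gave one. The median log2 fold change of the 9 genes was 0.68, beside -0.05 over all genes tested. It was 1.14 for the 4 inhibitory ligands and -0.09 for the 5 costimulatory ones.

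Among the inhibitory ligands, Cd274 encodes PD-L1, the ligand of PD-1 on T cells. Its normalized number in TAMs was 32.7, 45.0 and 65.9 in WT mice (lowest, median and highest library), 76.0, 83.6 and 101 in muMt-/- mice, and 55.5, 60.9 and 76.5 with GABA. All 6 muMt-/- libraries lay above all 6 WT libraries, and the GABA libraries lay between, overlapping WT at their lower end and muMt-/- only at their upper end. The group means in order were 46.8 ± 11.2 in WT mice, 63.2 ± 8.91 with GABA and 86.1 ± 9.75 in muMt-/- mice (SD, n = 6 each). The log2 fold change in muMt-/- against WT mice was 0.84 (SE 0.16, 95% interval 0.51 to 1.17, adjusted p 0.00349), a 1.79-fold higher level. Before normalization the groups overlapped, with 45 to 105 molecules of Cd274 per library in WT mice and 42 to 97 in muMt-/- mice, so the higher level is a higher share in libraries with a lower median total.

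Pdcd1lg2 encodes PD-L2, the other ligand of PD-1. Its normalized number was 0.789, 1.19 and 4.36 in WT mice, 4.61, 7.5 and 12.6 in muMt-/- mice, and 1.02, 3.82 and 6.65 with GABA. Here too every muMt-/- library lay above every WT library, with little room between the highest WT and the lowest muMt-/- library, and the GABA libraries overlapped both groups. The log2 fold change in muMt-/- against WT mice was 1.83 (SE 0.43, 95% interval 0.96 to 2.70, adjusted p 0.0155), a 3.57-fold higher level that rested on 16 molecules in the 6 WT libraries and 38 in the 6 muMt-/- libraries. Without muMt-/- replicate 4, the library with the highest value, the log2 fold change was 1.67. The adjusted p was then 0.0705 and the call was lost, and the calls over all genes fell from 194 to 67. With the depth of the library as a covariate neither gene was called, at a log2 fold change of 0.85 for Cd274 (adjusted p 0.0855) and 1.88 for Pdcd1lg2 (adjusted p 0.157), and 11 of 9469 genes were called. Over all alternatives the adjusted p ran from 4.07e-05 to 0.0855 for Cd274 and from 0.00659 to 0.157 for Pdcd1lg2. Of the 9 genes, these 2 were the ones with no overlap between muMt-/- and WT libraries, beside 1.15% of all genes that were higher in the same way (109 of 9469).

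Pvr encodes CD155, which binds the inhibitory receptors TIGIT and CD96 and the activating receptor CD226. In TAMs its normalized number was 0.726, 3.42 and 5.12 in WT mice, 3.69, 9.19 and 15.1 in muMt-/- mice, and 1.02, 5.35 and 9.14 with GABA. In muMt-/- mice 5 of the 6 libraries lay above every WT library, and the remaining one, replicate 3, lay within the WT range. The log2 fold change was 1.44 (SE 0.42, 95% interval 0.59 to 2.29) with an adjusted p of 0.0609, so Pvr was not called. Without muMt-/- replicate 3 the adjusted p was 0.0356 and Pvr was called, as it was with no filter (0.0244), in a robust fit and with the 12 libraries of the comparison alone (0.0317). Over all alternatives the adjusted p ran from 0.0244 to 0.545.

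Lgals9 encodes galectin-9, a ligand of TIM-3. Its normalized number was 23.7, 31.7 and 42.6 in WT mice, 16.2, 24.7 and 36.3 in muMt-/- mice, and 23.9, 32.3 and 38.2 with GABA. The 3 groups overlapped widely. Lgals9 was the only inhibitory ligand with a lower estimate in muMt-/- than in WT mice, at a log2 fold change of -0.31 (SE 0.20, 95% interval -0.71 to 0.10, adjusted p 0.501).

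**Figure D1:**
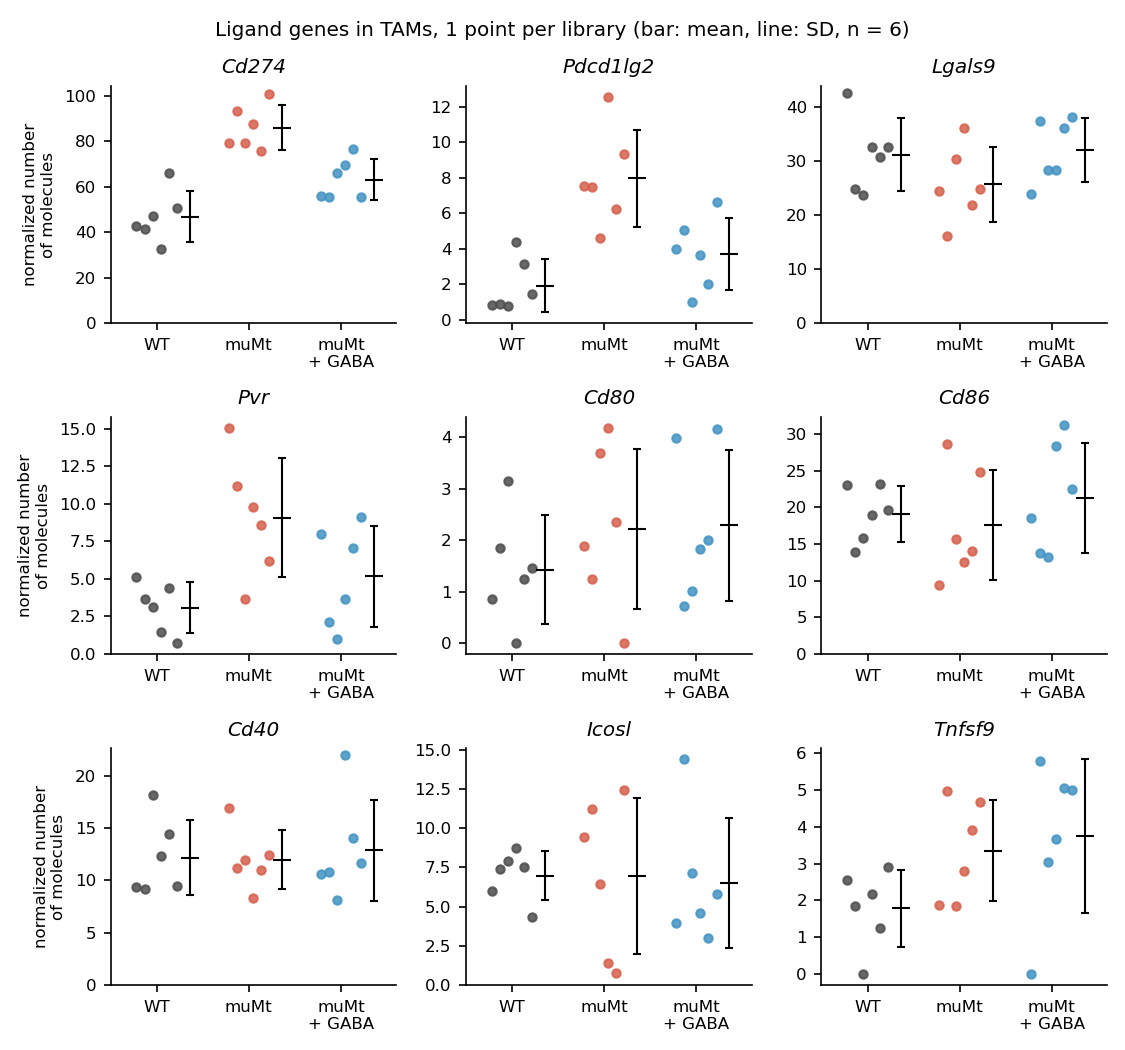
Normalized number of molecules of each ligand gene in TAMs, with 1 point per library, a bar at the mean and a line for the SD of the 6 libraries of a group. For Cd274 and Pdcd1lg2 the muMt-/- libraries lie above all WT libraries, while for the costimulatory ligands the groups overlap.

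None of the 5 costimulatory ligands was called in muMt-/- against WT mice by edgeR, with 0 at an unadjusted p under 0.05 and 0 of the 2 that had an adjusted p by DESeq2. Cd86 had a normalized number of 13.8, 19.3 and 23.2 in WT mice, 9.42, 14.9 and 28.6 in muMt-/- mice, and 13.2, 20.5 and 31.2 with GABA. Its log2 fold change in muMt-/- against WT mice was -0.15 (95% interval -0.65 to 0.35, adjusted p 0.852). The other ligand of CD28 and CTLA-4, Cd80, was near the limit of detection, with 11, 12 and 14 molecules in the 6 libraries of the WT, muMt-/- and GABA group, and its log2 fold change of 0.68 had a 95% interval of -0.58 to 1.94.

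CD40 is itself a receptor, through which CD40L on T cells activates macrophages. The normalized number of Cd40 was 9.23, 10.9 and 18.2 in WT mice, 8.37, 11.6 and 17.0 in muMt-/- mice, and 8.13, 11.2 and 22 with GABA. The 3 ranges were nearly the same, and the log2 fold change in muMt-/- against WT mice was -0.09 (95% interval -0.61 to 0.44). At this interval a change of the size called for Cd274, 0.84, lay outside for Cd40 and for Cd86.

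Icosl, the ligand of ICOS, had a normalized number of 4.36, 7.46 and 8.72 in WT mice, 0.783, 7.94 and 12.4 in muMt-/- mice, and 3.02, 5.20 and 14.4 with GABA. Its spread was wider in muMt-/- mice (SD 4.97) than in WT mice (SD 1.56), a difference in spread that was not tested, and its log2 fold change was -0.17 (95% interval -1.0 to 0.66). Tnfsf9 encodes 4-1BBL, the ligand of the costimulatory receptor 4-1BB. Its normalized number was 0, 2.01 and 2.91 in WT mice, 1.84, 3.35 and 4.98 in muMt-/- mice, and 0, 4.32 and 5.77 with GABA. In muMt-/- mice 3 of the 6 libraries lay above all WT libraries, with a log2 fold change of 0.86 (SE 0.54, 95% interval -0.23 to 1.94, adjusted p 0.479) on 14 and 17 molecules.

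The next question was whether GABA changed these genes in mice without B cells. In TAMs of muMt-/- mice with against without GABA, edgeR called 0 of the 9 genes, against 0.0211% of all genes tested (2 of 9469). At an unadjusted p under 0.05 the count was 2, Cd274 and Pdcd1lg2, both lower with GABA, against 8.46% of all genes. DESeq2 gave an adjusted p to 2 of the 9 and called 0, against 6.05% of the genes to which it gave one. For Cd274 the log2 fold change was -0.41 (SE 0.16, 95% interval -0.74 to -0.09, adjusted p 0.435), and 5 of the 6 GABA libraries lay below every muMt-/- library without GABA. For Pdcd1lg2 it was -0.93 (SE 0.40, 95% interval -1.74 to -0.13, adjusted p 0.504), with 4 of 6 libraries below. Pvr had an estimate of -0.74 (SE 0.40, adjusted p 0.631) with 3 of 6 libraries below, and Lgals9 an estimate of 0.37 (SE 0.20, adjusted p 0.642). None of these passed the correction. Of the 3 RNA quality genes tested, 2 had lower estimates, -0.66 for Malat1 (5 of 6 libraries below) and -0.70 for Neat1 (6 of 6 below), and Kcnq1ot1 a higher one of 0.14. For these genes edgeR called 0 of 3 and DESeq2 called 2 of the 2 it gave an adjusted p, and their part was not tested. The 5 costimulatory ligands had log2 fold changes of 0.30 (Cd86), 0.27 (Tnfsf9), 0.16 (Cd40), 0.15 (Icosl) and -0.07 (Cd80).

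GABA-treated muMt-/- mice were also compared with WT mice, and this comparison shares its WT libraries and its GABA libraries with the ones above. In TAMs edgeR called 0 of the 9 genes, against 0.0739% of all genes (7 of 9469). At an unadjusted p under 0.05 the count was 2, Cd274 and Tnfsf9, both higher with GABA, against 7.02% of all genes. The 3 RNA quality genes tested also had higher estimates here, 0.52 for Neat1, 0.80 for Kcnq1ot1 and 0.17 for Malat1, 2 of them at an unadjusted p under 0.05 and 0 called. Monocyte markers had 6 higher and 1 lower estimate (median 0.52), and dendritic cell markers 4 higher and 1 lower (median 1.19). Each of these 2 lists had 2 genes at an unadjusted p under 0.05 and 0 called. The part of all these genes was not tested. DESeq2 called 0 of the 3 that had an adjusted p, against 0.612% of the genes with one. The log2 fold change of Cd274 was 0.42 (SE 0.16, 95% interval 0.09 to 0.75, adjusted p 0.546), and 3 of 6 GABA libraries exceeded all of WT. Tnfsf9 had the highest estimate of the 9 genes, 1.12 (SE 0.49, 95% interval 0.13 to 2.11, adjusted p 0.657), and 5 of 6 libraries exceeded all of WT while 1 was at 0. Side by side, the estimates for Pdcd1lg2 were 1.83 in muMt-/- against WT mice, -0.93 with GABA against muMt-/- mice and 0.90 with GABA against WT mice. For Pvr they were 1.44, -0.74 and 0.70 in the same order. The last estimate of each gene is the sum of the other 2, and those share the muMt-/- libraries, so their opposite signs are no separate evidence. Those of Lgals9, Cd86, Cd40 and Icosl in GABA-treated against WT mice lay between -0.02 and 0.14, and that of Cd80 was 0.61.

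**Figure D2:**
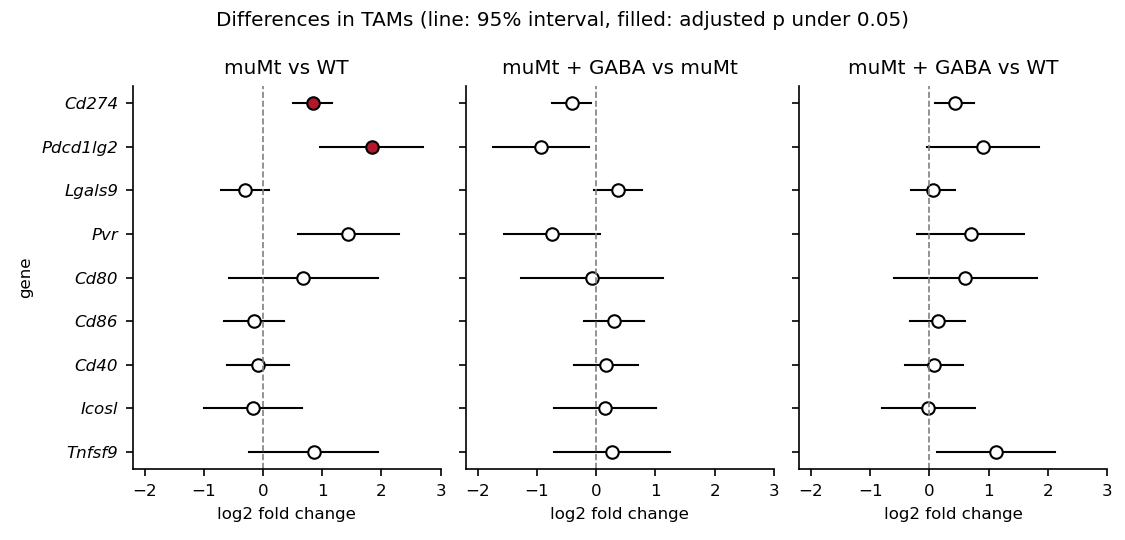
Log2 fold change of each ligand gene in TAMs in the 3 comparisons, with its 95% interval as a line. Filled points mark an adjusted p under 0.05, which Cd274 and Pdcd1lg2 reached in muMt-/- against WT mice, and the comparisons share libraries.

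The RNA of the TAM libraries differed between muMt-/- and WT mice in other ways as well. The muMt-/- libraries held fewer molecules by the median (149960 against 242756), though replicates 3 and 5 lay within the range of WT libraries, and the 4 long noncoding RNAs listed as a sign of RNA quality summed to 469, 577 and 1047 per 100000 molecules in muMt-/- mice, above all WT libraries (317, 366 and 389), with 349 to 534 under GABA. The 1047 belonged to replicate 4, and the other 5 had 469 to 606. Without replicate 4 the call of Pdcd1lg2 was lost, at a log2 fold change of 1.67 against 1.83 with it. Malat1 was the most abundant of them, and 2 of the 3 tested were called higher, Malat1 (log2 fold change 0.82) and Neat1 (1.22). Monocyte markers summed to 152, 165 and 198 per 100000 molecules in WT mice and 143, 319 and 332 in muMt-/- mice, and to 179, 220 and 245 with GABA, with Ccr2 the most abundant, and 2 of 7 were called higher (Ccr2 0.84, Plac8 0.90). Of 22 macrophage markers, all detected in each TAM group, 1 was called higher (Itgam 0.66) and 3 lower (C1qb -0.62, C1qc -0.57, Lyz2 -0.74). The estimates of the 22 were higher for 5 and lower for 17, with a median log2 fold change of -0.17. Of them 13 were at an unadjusted p under 0.05, against 14.9% of all genes, and DESeq2 called 6 of 22, against 8.27%. The sum of the 22 markers was 2475 per 100000 molecules in WT mice and 2022 in muMt-/- mice (medians), with Ctss the most abundant. What part depth, RNA quality or monocyte-like cells had in the levels of Cd274 and Pdcd1lg2 was not tested.

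Dendritic cell markers bear on the same genes, since dendritic cells also express PD-L1 and PD-L2. The 13 markers summed to 4.27, 5.55 and 10.5 per 100000 molecules in WT mice, 4.54, 6.63 and 24.7 in muMt-/- mice, and 6.47, 10.2 and 16.7 with GABA. Fscn1 had the highest mean over the 18 TAM libraries, though its median in muMt-/- mice was 1.33. Of the muMt-/- libraries, replicate 4 had the highest sum (24.7) and the highest Pdcd1lg2 (12.6), while replicate 3 had the next sum (20.1) and the lowest Pdcd1lg2 (4.61). In WT mice 9 of the 13 markers had molecules and Flt3, Zbtb46, Cd209a and Siglech were at 0, and in muMt-/- mice 10 had molecules and Zbtb46, Cd209a and Itgae were at 0. Of the 5 tested markers 3 had a higher and 2 a lower estimate in muMt-/- mice, with a median log2 fold change of 1.05. Of them 1, Ccl17, was called higher, at an estimate of 5.04 (SE 1.07). Its normalized mean was 0.154 in WT mice (SD 0.377) and 8.11 in muMt-/- mice (SD 13.3). In muMt-/- mice 4 libraries lay above every WT library. With a WT mean this near 0, the Ccl17 estimate gives a direction and not a size. The part of dendritic cells in the levels of Cd274 and Pdcd1lg2 was not tested, and the sort gated on CD11b and high F4/80. T cell markers were near 0 in TAMs, with medians of 1.72, 0.880 and 0.659 per 100000 molecules in WT, muMt-/- and GABA-treated mice, and 0 of them passed the filter. B cell markers had medians of 1.92, 1.89 and 1.41, with Cd79a, Pax5 and Blk among those at 0 in each TAM group. The number called was 0 of 1 for B cell, 0 of 5 for neutrophil and 0 of 6 for stroma markers by edgeR, with 0, 1 and 1 at an unadjusted p under 0.05, and DESeq2 called 0 of the 3 that had an adjusted p, all of stroma. Stroma markers summed to 9.87, 38.7 and 534 per 100000 molecules in WT mice, with Col3a1 the most abundant. Their sums were 8.84, 45.0 and 201 in muMt-/- mice and 52.0, 62.0 and 263 with GABA. The 534 belonged to WT replicate 6, and the part of stromal RNA was not tested. Of the 8 epithelial markers of tumour cells 1 was tested and called higher, Cdh1 (1.11), while Krt18, Krt19, Krt20, Cldn4, Epcam and Vil1 were at 0 in each TAM group.

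Other genes of the pathways were read from lists in the same comparison of muMt-/- with WT TAMs. Over all genes, 2.05% were called, 14.9% were at an unadjusted p under 0.05, and DESeq2 called 8.27% of those to which it gave an adjusted p. Of 21 genes of the interferon-γ pathway, which induces PD-L1, all were tested, and 1 was called higher (Irf2, log2 fold change 0.68, adjusted p 0.0278) and 0 lower. Of these, 7 were at an unadjusted p under 0.05 and DESeq2 called 4 of 21. Their estimates were higher for 12 and lower for 9, with a median log2 fold change of 0.12. Of 19 genes of the pathway from CD40 to NF-κB, 1 was called higher (Nfkbie 0.96, adjusted p 0.0380) and 0 lower. In this list 3 were at an unadjusted p under 0.05, and DESeq2 called 1 of the 6 with an adjusted p. Among 9 described regulators of PD-L1, 1 was called higher, the hypoxia factor Hif1a (0.69, adjusted p 0.0343), and 0 lower. Here 2 were at an unadjusted p under 0.05, and DESeq2 called 1 of 6. Other ligands of T cell receptors, 12 of which were tested, had 0 called higher and 1 lower, Lgals1 (-0.85, adjusted p 0.00351), which encodes galectin-1. Of these ligands 2 were at an unadjusted p under 0.05, and DESeq2 called 1 of 7. In TAMs of muMt-/- mice with against without GABA edgeR called 0 genes of these 4 lists, with 2, 3, 3 and 1 at an unadjusted p under 0.05 and 0, 0, 0 and 1 called by DESeq2. The shares over all genes there were 0.0211%, 8.46% and 6.05%.

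The genes most like each well-detected ligand were sought by Spearman correlation of log2 values over the 18 TAM libraries among 5310 genes, as a description over libraries that share groups and depth. For Cd274 they were Btg1 (0.903), Mertk (0.870) and Plbd1 (0.860), and for Lgals9 they were Gdi2 (0.839), Pacsin2 (0.763) and Mcrip1 (0.732). For Cd86 they were Ppt1 (0.849), Poldip3 (0.818) and Bud23 (0.794), and for Cd40 they were Commd4 (0.820), Mbd2 (0.777) and Mxd1 (0.754). Mertk is also on the list of macrophage markers. Among the ligands themselves, Cd274 correlated with Pvr at 0.564, with Cd40 at 0.181, with Cd86 at 0.102, with Icosl at -0.0382 and with Lgals9 at -0.323.

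Cd274 and Pdcd1lg2 are neighbours in the genome. By RefSeq on build GRCm38.p6, Cd274 lies at chr19:29362107-29388095 and Pdcd1lg2 at chr19:29410919-29472927, with 22823 bases and 0 genes between them. The start of Cd274 as annotated overlaps Plgrkt, a protein-coding gene, between bases 29362107 and 29367292, and Plgrkt had a log2 fold change of -0.35 in muMt-/- against WT TAMs (adjusted p 0.549). Cd80 at chr16:38457430-38495958 and Cd86 at chr16:36568956-36666158 have 43 genes between them. The other ligands lie on chromosomes of their own: Lgals9 at chr11:78962979-78984924, Pvr at chr7:19903578-19921143, Cd40 at chr2:165055614-165071654, Icosl at chr10:78069368-78079525 and Tnfsf9 at chr17:57105287-57107758.

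The promoters of both called genes are shown since these neighbours were higher in the same libraries. RefSeq sequences of 250 bases before and 50 after a transcript start were at hand for 5 of the 9 genes, Cd274, Pdcd1lg2, Lgals9, Cd80 and Icosl. Matches of the following 3 motifs on both strands are marked in capitals: GAAA and GAAA separated by 2 bases (the motif of interferon regulatory factors), GGG and CC separated by 5 bases (the NF-κB motif), and TGANTCA (the AP-1 motif). The Cd274 promoter, chr19:29367188-29367487 on the plus strand of GRCm38.p6, held 0 matches of the 3 motifs, which says only that these letters are not in this window. For Cd274 and Cd80 the start used lies inside the annotated span of the gene, not at its first base. The Pdcd1lg2 promoter, chr19:29410669-29410968 on the plus strand, held 1 match, of the NF-κB motif, starting at base 7.
Cd274: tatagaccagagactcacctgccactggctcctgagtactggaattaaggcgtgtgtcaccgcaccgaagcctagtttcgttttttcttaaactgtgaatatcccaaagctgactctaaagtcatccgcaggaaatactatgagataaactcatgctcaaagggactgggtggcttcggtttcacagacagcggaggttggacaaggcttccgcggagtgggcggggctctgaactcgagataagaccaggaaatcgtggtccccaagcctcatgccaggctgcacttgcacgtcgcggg
Pdcd1lg2: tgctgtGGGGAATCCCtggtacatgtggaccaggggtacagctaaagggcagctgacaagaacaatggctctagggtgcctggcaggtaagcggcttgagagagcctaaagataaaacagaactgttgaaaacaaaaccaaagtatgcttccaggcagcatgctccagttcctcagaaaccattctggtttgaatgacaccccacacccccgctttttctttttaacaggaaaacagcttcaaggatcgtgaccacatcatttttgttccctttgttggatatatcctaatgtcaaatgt
Of the other 3, the Lgals9 promoter held 2 matches of the interferon regulatory factor motif and 1 of the NF-κB motif, that of Cd80 held 2 of the NF-κB and 1 of the AP-1 motif, and that of Icosl held 2 of the NF-κB motif. Among 32851 mouse promoters of the same length, 3.44% held the interferon regulatory factor motif, 50.8% the NF-κB motif and 7.81% the AP-1 motif. A match describes the letters and was not tested for binding.

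Where the ligands were read was asked by comparing TAMs with CD8+ T cells of WT mice. Here 8 of the 9 genes were tested and 5 were called, against 22.7% of all genes tested (1928 of 8477), and 3 had all TAM libraries above all CD8+ T cell libraries, against 9.83% of all genes (833 of 8477). Lgals9 averaged 16.8 molecules per 100000 in TAMs and 6.85 in CD8+ T cells, a log2 fold change of 1.47 (SE 0.33, adjusted p 0.000474) with 6 of 6 TAM libraries above all others. For Cd86 the means were 10.2 and 1.29, with a log2 fold change of 2.70 (SE 0.55, adjusted p 0.000116) that was 3.51 without CD8+ T cell replicate 6. Cd40 had 97 molecules in the 6 TAM libraries and 0 of 262840 molecules in the CD8+ T cell libraries, so its level was at least 5.79-fold higher in TAMs, against a floor of 3 counts over the group (adjusted p 3.76e-06). Cd274 averaged 25.1 and 10.8 molecules per 100000, a log2 fold change of 1.56 (SE 0.39, adjusted p 0.00153), with 5 of 6 TAM libraries above every CD8+ T cell library.

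Pdcd1lg2 was the called gene with the opposite direction, at 1.03 molecules per 100000 in TAMs and 4.38 in CD8+ T cells of WT mice (log2 fold change -1.66, SE 0.56, adjusted p 0.0242). The call rested on 16 and 12 molecules, and the libraries of both cell types overlapped. Without CD8+ T cell replicate 3, 4 or 5 the adjusted p was 0.0546, 0.0709 or 0.0641, at log2 fold changes of -1.59, -1.57 and -1.59. Pvr had 1.64 and 4.20 molecules per 100000 and was not called (log2 fold change -0.87, adjusted p 0.340). Icosl had 55 and 3 molecules, a ratio of shares of 3.28 (95% counting interval 1.07 to 16.4), with an adjusted p of 0.0663 that was 0.0390 without CD8+ T cell replicate 6. For Tnfsf9 the ratio was 2.51 (95% counting interval 0.381 to 106, 14 and 1 molecules) and for Cd80, which was not tested, 0.985 (0.215 to 9.14, 11 and 2 molecules). The difference in depth between the cell types cannot be told apart from the cell type.

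**Figure D3:**
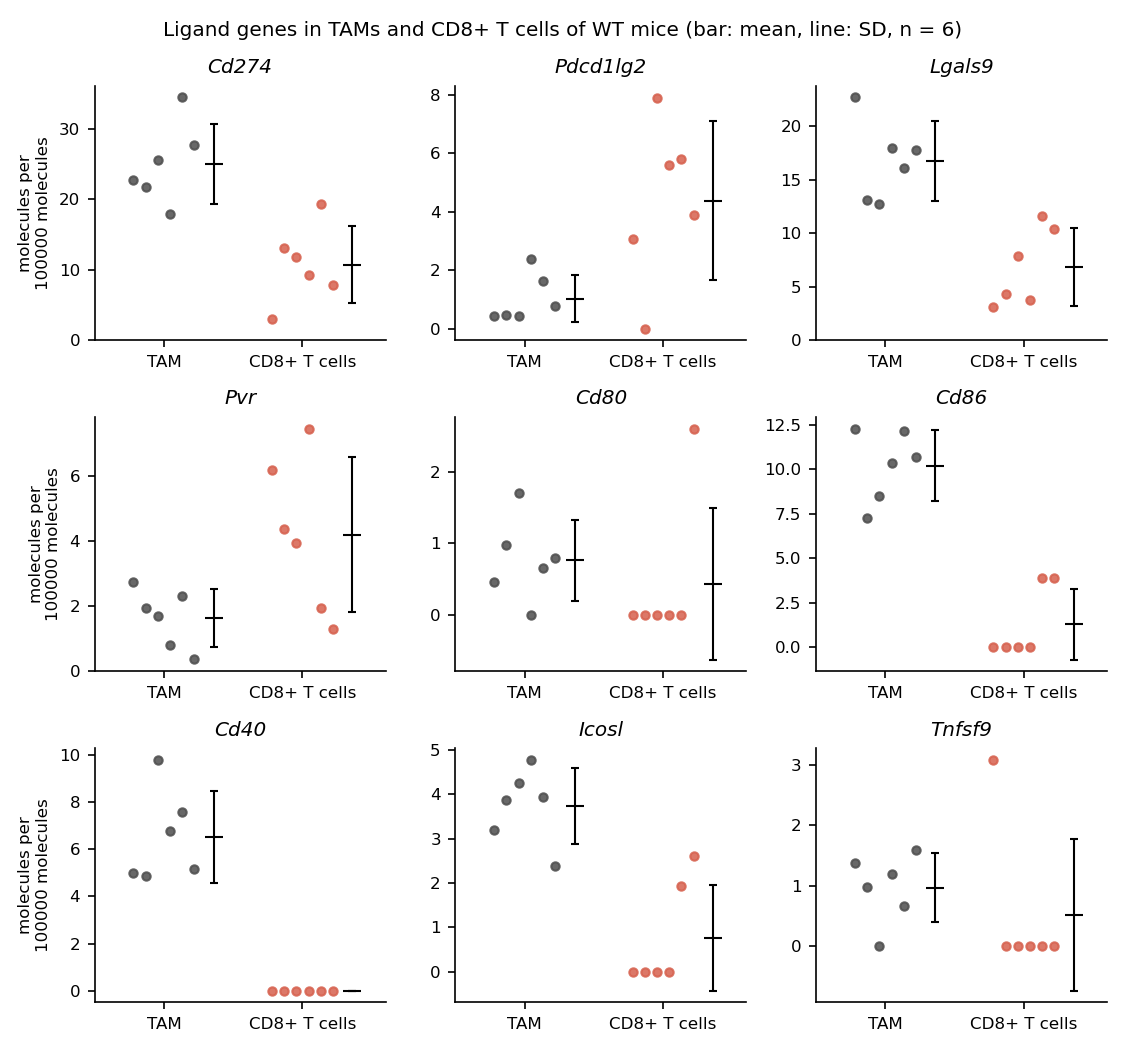
Molecules of each ligand gene per 100000 molecules of the library in TAMs and CD8+ T cells of WT mice, with 1 point per library, a bar at the mean and a line for the SD of 6 libraries. Lgals9, Cd86 and Cd40 lie higher in every TAM library, and Pdcd1lg2 has the higher mean in CD8+ T cells.

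In CD8+ T cells the sort was checked by 13 T cell markers, all of which had molecules in each group, at 308 to 606 per 100000 molecules in WT mice, 181 to 517 in muMt-/- mice and 174 to 590 with GABA. Cd8b1 had the highest mean per 100000 molecules over the 18 libraries, while Cd8a had more molecules in all (722 against 718). Only Cd274, Pdcd1lg2, Lgals9, Pvr and Cd86 passed the filter there. The remaining 4 genes had few molecules in the WT, muMt-/- and GABA group: Cd80 had 2, 1 and 2, Cd40 had 0, 5 and 5, Icosl had 3, 6 and 1, and Tnfsf9 had 1, 7 and 4.

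In CD8+ T cells of muMt-/- against WT mice, edgeR called 0 of the 5 genes, against 0.00% of all genes tested, with 0 at an unadjusted p under 0.05 against 6.17% of all genes, and DESeq2 called 0 of 5 against 0.00%. With GABA against muMt-/- mice edgeR called 0 of 5 against 0.00%, with 0 at an unadjusted p under 0.05 against 3.71%, and DESeq2 called 0 of 5 against 0.00%. With GABA against WT mice edgeR called 0 of 5 against 0.00%, with 0 at an unadjusted p under 0.05 against 6.89%, and DESeq2 called 0 of 5 against 0.0150%. The median log2 fold change over all genes was 0.15 in muMt-/- and 0.21 in GABA-treated against WT mice, and 0.06 in both with size factors of DESeq2 in place of TMM. These medians are the level against which a change in CD8+ T cells reads.

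The normalized number of Cd274 in CD8+ T cells was 1.83, 5.90 and 11.4 in WT mice, 0, 7.77 and 26.3 in muMt-/- mice, and 3.66, 3.81 and 17.2 with GABA. The groups overlapped, and 1 library stood apart in each of the muMt-/- and GABA groups, replicate 1 of both. The log2 fold change in muMt-/- against WT mice was 0.60 (95% interval -0.44 to 1.64, adjusted p 0.955). With a library left out it ran from 0.03, without muMt-/- replicate 1, to 0.90. With GABA against muMt-/- mice it was -0.45 (95% interval -1.38 to 0.48, adjusted p 0.999), and it turned to 0.12 without muMt-/- replicate 1. Lgals9 had a normalized number of 1.83, 3.41 and 6.86 in WT mice, 2.23, 3.93 and 5.61 in muMt-/- mice and 1.86, 6.95 and 10.1 with GABA, and its log2 fold change with GABA against muMt-/- mice was 0.70 (95% interval -0.10 to 1.5, adjusted p 0.999). For Pdcd1lg2 the values were 0 to 4.42, 1.64 to 4.49 and 0.620 to 4.34, for Pvr 0.751 to 4.13, 0.762 to 2.97 and 0 to 3.12, and for Cd86 0 to 2.29, 0.743 to 5.06 and 0 to 3.18 in the same order of groups. The interval of Cd274 in muMt-/- against WT mice holds the 0.84 found in TAMs, so the CD8+ T cell values neither show nor exclude a difference of that size.

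Macrophage markers were present in the CD8+ T cell libraries and varied between them. The 22 markers summed to 18.6, 55.2 and 267 per 100000 molecules in WT mice, 134, 199 and 853 in muMt-/- mice, and 49.3, 299 and 474 with GABA, with Ctss the most abundant (medians 19.1, 64.2 and 71.7). In the WT group 19 of the 22 had molecules and Adgre1, Mrc1 and Mertk were at 0, while all 22 had molecules in the muMt-/- and GABA groups. The WT group also had the lowest median total, 42065.5 molecules. In muMt-/- against WT mice all 19 tested markers had a higher estimate, 15 at an unadjusted p under 0.05 and 0 after adjustment by edgeR or by DESeq2. In WT mice replicate 5 had the highest Cd274 (11.4) and the highest macrophage sum (267) of its group. The muMt-/- library with the highest Cd274, replicate 1, also had the highest macrophage sum (853) and the lowest T cell sum (181) of its group. With GABA, replicate 1 had the highest Cd274, the lowest T cell sum (174) and a macrophage sum of 468, while replicate 3 had a macrophage sum of 474 and a normalized number of Cd274 of 3.72. The part of macrophage RNA in the Cd274 level of CD8+ T cell libraries was not tested, and the sort gated on TCRbeta and CD8.

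**Figure D4:**
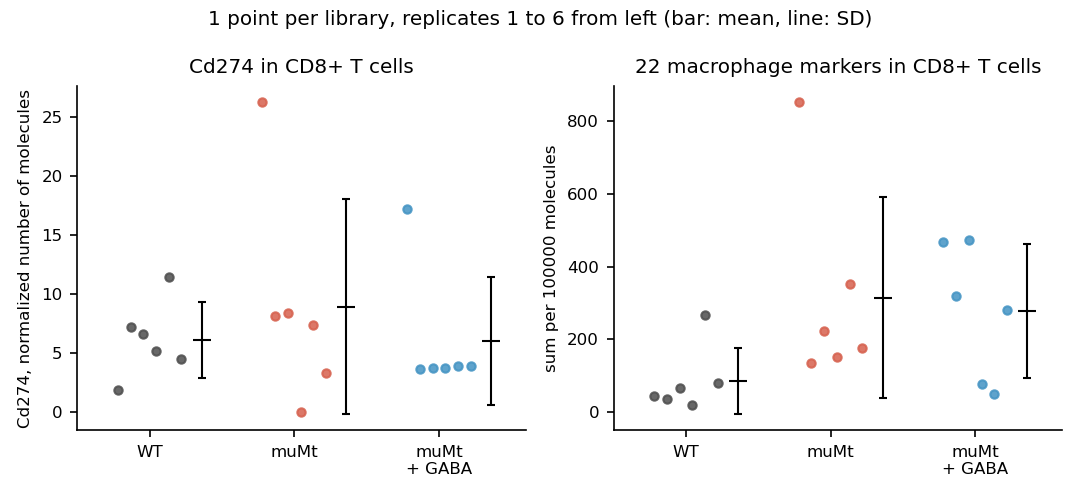
Normalized number of molecules of Cd274 (left) and sum of 22 macrophage markers per 100000 molecules (right) in CD8+ T cells, with 1 point per library in order of replicate, a bar at the mean and a line for the SD of 6 libraries. Replicate 1 of the muMt-/- group is highest in both panels, at 26.3 and 853.

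Whether the TAM response differed from the CD8+ T cell response was tested as a difference of differences over all 36 libraries. For muMt-/- against WT mice edgeR called 0 of the 8 genes tested, against 0.0118% of all genes (1 of 8477), with 3 at an unadjusted p under 0.05 against 10.1%, and DESeq2 called 0 of the 1 that had an adjusted p, against 4.14%. The 3 were Pdcd1lg2 (difference in log2 fold change 1.63, SE 0.69, 95% interval 0.25 to 3.01, adjusted p 0.405) and Pvr (1.78, SE 0.80, 95% interval 0.17 to 3.38, adjusted p 0.439), with larger estimates in TAMs, and Cd40, whose CD8+ T cell libraries of WT mice were all at 0. The 3 RNA quality genes tested also had larger estimates in TAMs, 2 of them at an unadjusted p under 0.05 (Malat1 0.89, Neat1 0.82). All 22 macrophage markers had lower estimates, 17 at an unadjusted p under 0.05. For these 2 lists edgeR called 0 genes. DESeq2 called 5 of the 18 macrophage markers and 1 of the 2 RNA quality genes that had an adjusted p. The part of both lists was not tested. For Cd274 the difference was 0.20 (SE 0.54, adjusted p 0.952), and it turned to -0.12 without CD8+ T cell WT replicate 5 and to -0.01 without CD8+ T cell muMt-/- replicate 4, and was 0.79 without CD8+ T cell muMt-/- replicate 1, beside a median of -0.30 over all genes (-0.11 with DESeq2 size factors), so the call in TAMs is not shown to be particular to TAMs. For GABA against muMt-/- mice edgeR called 0 of 8 against 0.00%, with 0 at an unadjusted p under 0.05 against 4.53%, and DESeq2 called 0 of 8 against 0.00%.

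The receptors of these ligands were read in the CD8+ T cells. Of the 10 receptor genes 8 were tested, and edgeR called 0 in each of the 3 comparisons, with 1, 1 and 0 at an unadjusted p under 0.05 and 0 called by DESeq2. The shares of all genes at that unadjusted p were 6.17%, 3.71% and 6.89%. In muMt-/- against WT mice the gene was Havcr2 (log2 fold change 0.87, 4 of 6 libraries above all of WT, adjusted p 0.713 by edgeR). With GABA against muMt-/- mice it was Ctla4 (-0.78, adjusted p 0.999 by edgeR). PD-1 (Pdcd1) had a normalized number of 2.40 to 21.7 in WT mice, 5.06 to 17.9 in muMt-/- mice and 5.08 to 15.0 with GABA. Havcr2, which encodes TIM-3, the receptor of galectin-9, had 2.40, 5.0 and 7.22 in WT mice, 5.72, 8.86 and 12.5 in muMt-/- mice and 3.18, 6.77 and 10.2 with GABA, with overlap between all groups. Icos and Tnfrsf9, the receptors of Icosl and Tnfsf9, were found in all 18 libraries, at medians of 19.3, 26.1 and 21.0 for Icos and 30.8, 25.7 and 35.1 for Tnfrsf9. Cd28 had medians of 16.4, 14.7 and 11.3 and Ctla4 of 9.77, 16.2 and 9.68. Of the receptors of Pvr, Cd226 had 14, 34 and 28 molecules and Cd96 had 14, 21 and 18 in the WT, muMt-/- and GABA group, while Tigit had 0, 1 and 1. The ligand of CD40, Cd40lg, had 2, 7 and 8 molecules.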

How the data were processed

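Per the labels and the study's methods, the deposited values are counts of distinct molecules per gene and library, which the authors obtained by digital RNA sequencing and mapping by STAR 2.5.4b against mm10 and the genes of refFlat. The labels describe spike-in RNA, but the table holds 0 spike-in rows, so no absolute scale was available. All 36 libraries were used and 0 columns had no sample. Counts were tested in edgeR 4.0.16 (TMM, quasi-likelihood F-test, 1 coefficient per group, 18 libraries of a cell type or all 36) on genes with a mean normalized number above 1, with Benjamini-Hochberg adjustment over all tested genes, in R 4.3.3; the biological coefficient of variation was 0.195 for TAM and 0.294 for CD8+ T cell libraries. DESeq2 1.42.0 gave size factors and the Wald test. Levels, lists, likeness and motifs were computed in Python 3.11.15. The ligand genes, the marker and pathway lists and the receptors were chosen with earlier results of these data known. Genes named by rule were the 9 ligands, the receptors, list genes with an adjusted p under 0.05, the marker of each list with the highest mean over a cell type, and, for ligands with a mean of at least 10 in TAMs, the 3 genes with the highest Spearman correlation of log2(normalized number + 1) among genes with a mean of at least 5. Also named were the tested RNA quality genes, Plgrkt, Cd8a and markers at 0 in a group. For ligand genes compared between cell types, ratios of 1 to 3 molecules carry exact 95% counting intervals, and floors are 3 counts over a group. Intervals and floors cover counting error only. Alternatives were other scalings, filters and tools, a robust fit, depth as a covariate, the 12 libraries of a comparison alone, a replicate block and each library left out. Gene positions and promoters are from RefSeq (GRCm38.p6). The fits were tested on simulated data, and the outcome of that test is not reported here.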

Additional observations from a re-analysis of the deposited data

Results flagged for a closer look

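Within groups of 6 libraries, 7 values stood far from the others of their group, of 57 groups examined, and 3 of the 7 were among the 42 groups of ligand values. Chance flags about 1 in 20 groups. In TAMs, GABA-treated muMt-/- replicate 2 had a normalized number of Icosl of 14.4, where the other 5 libraries had 3.02 to 7.11. In CD8+ T cells, muMt-/- replicate 1 had a Cd274 value of 26.3 beside 0 to 8.38 in the others, and GABA-treated muMt-/- replicate 1 had 17.2 beside 3.66 to 3.94. The macrophage markers of the CD8+ T cell libraries summed to 267 per 100000 molecules in WT replicate 5, beside 18.6 to 80.6 in the others, and to 853 in muMt-/- replicate 1, beside 134 to 352. The RNA quality genes of the TAM libraries summed to 1047 per 100000 molecules in muMt-/- replicate 4, beside 469 to 606 in the others, and to 317 in WT replicate 1, beside 362 to 389. The reason for these values was not tested.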

How the results depend on the processing

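Of 849 values of 41 gene results under the alternatives, 805 kept their direction and their side of the threshold, 6 lost a call, 11 gained one and 27 changed sign, all 27 with a library left out. In TAMs of muMt-/- against WT mice the count of called ligand genes, 2, was 1 with filterByExpr, which left 4 of the 9 genes to test, 1 by the adjusted p of DESeq2, which gave one to 4 genes, and 0 with depth as a covariate. It ran from 1 to 3 with a library left out and was 3 with no filter, in a robust fit and with the 12 libraries alone. Over all genes the calls moved too, from 194 of 9469 to 295 of 3853 with filterByExpr, 282 of 3410 by DESeq2, 11 of 9469 with depth as a covariate and 67 to 231 with a library left out. The cause of the loss under the depth covariate was not tested. In TAMs with GABA against muMt-/- mice, 2 genes of all were called, and 51 with no filter, 62 of 1024 by DESeq2, and 2 to 36 with a library left out. With GABA against WT mice 7 were called, and 63 with no filter, 13 of 2125 by DESeq2 and 2 to 9 with a library left out. By the unadjusted p of DESeq2, the criterion of the study, 3 genes passed in TAMs of muMt-/- against WT mice, 2 with GABA against muMt-/- mice and 2 with GABA against WT mice, beside 1111, 580 and 440 of 9458 genes. Between TAMs and CD8+ T cells the count, 5, was 3 with filterByExpr, which left 3 genes to test and called 1166 of 2614 over all genes, and ran from 4 to 6 with a library left out. In the fits of CD8+ T cells alone filterByExpr left 0 of the 9 genes and gave no value, and the other alternatives called 0 ligand genes there. The calls over all genes in CD8+ T cells, 0 in each comparison, did move. In muMt-/- against WT mice they were 72 of 13109 with no filter and 13 of 6667 without WT replicate 5. With no filter they were 64 with GABA against WT mice and 11 with GABA against muMt-/- mice. With depth as a covariate they were 6 with GABA against muMt-/- mice.

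Log2 fold changes that changed sign with a library left out ran as follows. In TAMs of muMt-/- against WT mice Cd40 ran from -0.17 to 0.0478 and Icosl from -0.41 to 0.16. With GABA against muMt-/- mice Cd40 ran from -0.0689 to 0.25, Cd80 from -0.38 to 0.16 and Icosl from -0.32 to 0.38. With GABA against WT mice Cd40 ran from -0.15 to 0.21, Cd86 from -0.00468 to 0.25, Icosl from -0.49 to 0.12 and Lgals9 from -0.0174 to 0.14. In CD8+ T cells Cd274 with GABA against muMt-/- mice ran from -1.15 to 0.12, and its difference between the TAM and the CD8+ T cell response to the absence of B cells from -0.12 to 0.79. None of these had been called.

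Residuals of libraries with the same replicate number correlated at -0.14 to 0.10 in TAMs (median 0.0067) and at -0.19 to 0.31 in CD8+ T cells (median -0.016). Among the CD8+ T cell pairs, 5 of 18 were above 0.1. Whether some replicate numbers mark a shared batch was not tested. With the replicate number as a block, 3 ligand genes were called in TAMs of muMt-/- against WT mice, Pvr beside Cd274 and Pdcd1lg2. In CD8+ T cells, 3 molecules in the shallowest WT library correspond to 13.1 per 100000.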
